A study of Mus musculus with 10 samples.

Results

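The 10 genes described here encode enzymes that make, break down or phosphorylate ceramide and the lipids derived from it: *Smpd1*, *Asah1*, *Sphk1*, *Cerk*, *Sgpl1*, *Sgms1*, *Degs1*, *Cers2*, *Cers6* and *Plpp3*. They were chosen by gene symbol with earlier results of these data known, and each matched 1 of the 55487 genes in the count table. Their transcripts were measured by bulk RNA sequencing of spinal cord cells from 5 male C57BL/6 mice of the Arg1tm1Lky genotype, in which the *Arg1* promoter drives a yellow fluorescent protein (YFP). The study used animals of 8–12 weeks. All mice had experimental autoimmune encephalomyelitis (EAE), a model of multiple sclerosis induced by immunization with a myelin peptide in Freund's adjuvant and pertussis toxin, and were taken at peak disease, which the study defined as a clinical score of 3–4. From each spinal cord, 200000 YFP+ (ARG1+) and 100000 YFP- (ARG1-) viable cells were sorted from the same CD3-Ly6G-CD45+CX3CR1+ gate, giving 5 pairs of an ARG1+ and an ARG1- library. The animals' numbers in the labels are m2, m6, m234, m235 and m236, and library values are listed in this order throughout. There were no healthy animals in the comparison. The gate leaves out T cells and neutrophils but does not separate microglia, border-associated macrophages and monocyte-derived cells, and YFP reports activity of the *Arg1* promoter rather than a cell lineage.

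Ceramide is the hub of sphingolipid metabolism. It is built in the endoplasmic reticulum by ceramide synthases and a desaturase, is turned into sphingomyelin in the Golgi, and is released again when sphingomyelin from membranes and from engulfed material is split in the lysosome. Ceramidases convert ceramide to sphingosine, sphingosine kinases add a phosphate, and sphingosine phosphate then either signals through its receptors, is dephosphorylated or is cleaved irreversibly by a lyase. Myelin is rich in sphingolipids, and macrophages that take up myelin break these lipids down in lysosomes.

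*Plpp3* had the largest difference of the members. Its transcripts were 2.70-fold higher in ARG1+ than in ARG1- cells (log2 fold change 1.43 ± 0.11 SE, false discovery rate (FDR) 6.02e-05). *Smpd1*, *Cerk* and *Asah1* also rose, by 1.32-fold, 1.32-fold and 1.19-fold. The other 6 members did not pass an FDR of 0.05, although *Sphk1*, *Degs1*, *Sgpl1* and *Sgms1* were higher in the ARG1+ library of all 5 animals and *Cers6* was lower in all 5. No member was called lower (edgeR). With the animal added to the model as a block, 8 members were called higher and *Cers6* lower, and *Cers2* alone was not called. FDR is the Benjamini-Hochberg adjusted p of edgeR's quasi-likelihood test over all 13740 genes whose CPM, the read count scaled to library size, exceeded 1 in 3 or more libraries, and all 10 members passed that filter. Of all genes tested, 6.82% were called higher and 6.15% lower without the block, and 16.8% and 18.3% with it. The median log2 fold change of the 10 members was 0.28, and that of all tested genes was 0.00. The paper had already named *Plpp3* as upregulated and sphingolipid metabolism as enriched in the ARG1+ cells. Counts and medians over the members therefore describe them and do not test them as a set. In bulk samples, a different mix of cells and a different amount of RNA per cell cannot be told apart.

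**Figure D1:**
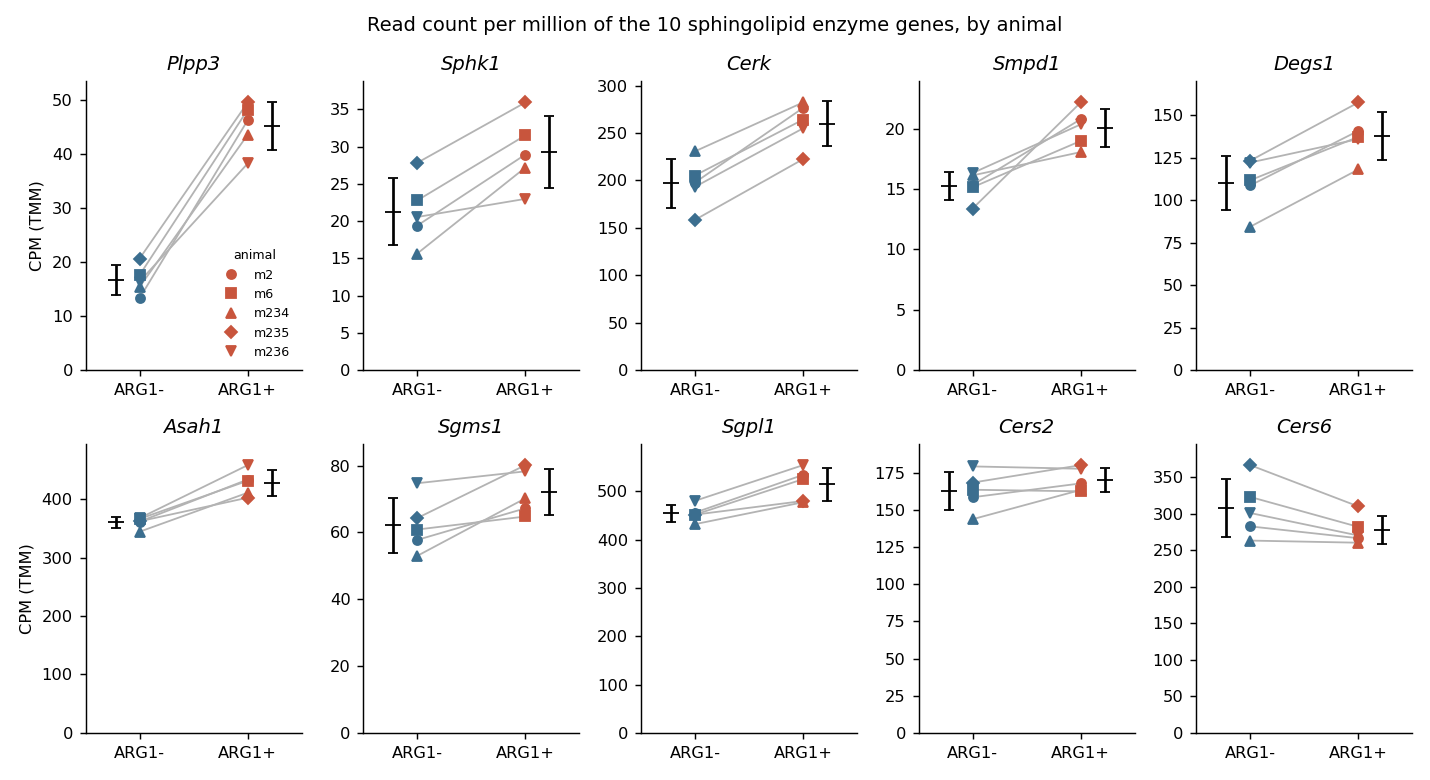
Read counts scaled to library size (CPM with TMM factors; y axis from 0) of the 10 enzyme genes in the ARG1- (blue) and ARG1+ (red) library of each of 5 animals, joined by grey lines, with black bars for the mean and SD of each group. The ARG1+ libraries of *Plpp3* sit between 38.3 and 49.6 and the ARG1- libraries between 13.3 and 20.7, the 5 lines of *Sphk1*, *Cerk* and *Degs1* rise from staggered starting levels, and those of *Cers6* fall.

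The start regions of the 3 members with the largest increases at an FDR below 0.05 are printed so that the letters upstream of these genes can be set beside their values. *Plpp3* was fixed by a rule, and *Smpd1* and *Cerk* were added after their values were seen. Each window runs 5′ to 3′ on the gene's own strand from 250 bases before to 50 after the start of the transcript and was taken from RefSeq (GRCm38.p6). The *Plpp3* window lies at chr4:105157097-105157396 on the forward strand, that of *Smpd1* at chr7:105554110-105554409 on the forward strand and that of *Cerk* at chr15:86186092-86186391 on the reverse strand. Capitals mark GGGCGG, the GC box bound by Sp family factors, or its reverse complement CCGCCC.
Plpp3: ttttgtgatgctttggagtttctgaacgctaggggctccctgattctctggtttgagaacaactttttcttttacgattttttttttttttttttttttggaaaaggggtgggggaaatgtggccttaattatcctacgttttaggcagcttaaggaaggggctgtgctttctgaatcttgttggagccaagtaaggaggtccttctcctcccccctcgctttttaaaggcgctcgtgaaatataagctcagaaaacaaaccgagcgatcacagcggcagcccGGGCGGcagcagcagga
Smpd1: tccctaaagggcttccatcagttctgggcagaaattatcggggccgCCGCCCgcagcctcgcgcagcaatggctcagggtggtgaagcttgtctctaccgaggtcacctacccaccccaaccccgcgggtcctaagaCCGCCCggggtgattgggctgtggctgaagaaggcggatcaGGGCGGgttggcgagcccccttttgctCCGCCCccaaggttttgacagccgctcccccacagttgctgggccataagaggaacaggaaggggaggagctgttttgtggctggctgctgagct
Cerk: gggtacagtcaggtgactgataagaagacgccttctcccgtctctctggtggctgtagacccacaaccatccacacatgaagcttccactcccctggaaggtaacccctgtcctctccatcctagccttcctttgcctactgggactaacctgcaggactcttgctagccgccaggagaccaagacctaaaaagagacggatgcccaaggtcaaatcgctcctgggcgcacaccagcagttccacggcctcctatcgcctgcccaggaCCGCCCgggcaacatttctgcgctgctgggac

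The *Smpd1* window held 4 GC boxes, first bases at -204, -113, -72 and -45 relative to the transcript start. *Plpp3* and *Cerk* had 1 each, and both lay after the start, at 34 and 19. GC content was 46.0% in the *Plpp3* window, 63.0% in that of *Smpd1* and 58.3% in that of *Cerk*, against a median of 52.7% over all 32851 RefSeq windows of the same length. RefSeq gave 17 windows for 9 members, since *Cers2*, *Sphk1* and *Sgms1* have several starts. No window was available for *Asah1*, so it was not searched for any motif. A GC box was found on either strand in at least 1 window of 6 of these 9 members and in 7 of the 17 windows (41.2%), against 35.7% of all windows. Windows of *Degs1*, *Cers6*, *Cers2* and *Sphk1* held the E-box CACGTG, a palindrome. It was found in 5 of the 17 windows, 2 of them overlapping windows of *Sphk1*, against 7.15% of all windows. Its extension TCACGTGA, which contains CACGTG and is the core of the element bound by the lysosomal regulator TFEB, was in none of the 17 windows and in 0.974% of all. TGANTCA, the AP-1 site, was present in 2 overlapping windows of *Sphk1* and 1 window of *Sgms1* (7.81% of all). TATAAA was present in 1 window each of the same genes (13.6% of all). Overlapping windows can hold the same site, so 1 site may be counted more than once. The GC box was thus present at *Plpp3*, *Smpd1* and *Cerk*, which rose, and also at *Cers2*, *Sgpl1* and *Sgms1*, which were not called without the block.

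Gene positions are those of the count table on GRCm38. *Plpp3*, at bases 105157347 to 105232764 of chromosome 4, encodes a lipid phosphate phosphatase of the cell surface that dephosphorylates extracellular lysophosphatidic acid and sphingosine phosphate. In ARG1+ cells its CPM was 46.3 in m2, 48.2 in m6, 43.6 in m234, 49.6 in m235 and 38.3 in m236. In ARG1- cells it was 13.3, 17.6, 15.4, 20.7 and 16.4. Every ARG1+ library was above every ARG1- library, and the means were 45.2 ± 4.47 and 16.7 ± 2.72 (SD, n = 5 each). The difference within an animal ranged from 1.22 to 1.79 log2 units, with the largest in m2. *Plpp3* was also the only member called and past 1 log2 unit, as were 0.56% of all tested genes on the higher and 0.888% on the lower side, and its log2 fold change stayed between 1.35 and 1.53 in the 24 other fits. Its relatives in the family were not called. *Plpp1* (4.97 ± 1.19 against 6.59 ± 2.07 CPM) and *Plpp2* (10.9 ± 0.90 against 11.8 ± 2.03 CPM) had FDRs of 0.321 and 0.475, and *Plpp1* was lower with the block (log2 fold change -0.37, FDR 0.0302).

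Within this trio, counts scaled to exon length gave *Plpp3* 60.2% ± 3.75 of the family in ARG1+ and 32.6% ± 2.09 in ARG1- cells (SD, n = 5 each). The ratio of *Plpp3* to *Plpp1* was 5.39 ± 1.91 against 1.52 ± 0.47, and that of *Plpp3* to *Plpp2* was 2.19 ± 0.37 against 0.758 ± 0.16. Neither ratio overlapped between the groups. Across the 7 ratios to a family partner that were compared, chosen after the values were seen, both gave a 2-sided exact permutation p of 0.00794, the smallest that 5 against 5 libraries can give (adjusted p = 0.0185). The most abundant phosphatase of the trio was thus *Plpp2* in ARG1- cells, at 44.3% ± 7.36, and *Plpp3* in ARG1+ cells. Permuted within animals, no ratio can reach an exact p below 0.0625.

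Both lysosomal enzymes among the members rose. *Smpd1*, at bases 105554360 to 105558389 of chromosome 7, encodes acid sphingomyelinase, which splits sphingomyelin into ceramide and phosphocholine. Its CPM in ARG1+ cells was 20.8, 19.0, 18.1, 22.2 and 20.3, and in ARG1- cells 15.3, 15.1, 16.1, 13.4 and 16.3. The groups did not overlap, with the narrowest gap in m234 and the widest in m235, where the ARG1+ value was the highest and the ARG1- value the lowest of their groups. The log2 fold change was 0.40 ± 0.08 (SE, FDR 0.00725), and it passed an FDR of 0.05 in all 24 other fits, at most at 0.0499.

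*Asah1*, at bases 41340197 to 41374773 of chromosome 8 (reverse strand), encodes acid ceramidase, which hydrolyses lysosomal ceramide to sphingosine and a fatty acid. It reached 434, 432, 411, 403 and 458 CPM in ARG1+ cells and 362, 366, 344, 362 and 368 CPM in ARG1- cells. These groups did not overlap either. The increase was small and even across animals, from 0.15 to 0.32 log2 units, with a log2 fold change of 0.25 ± 0.05 (SE, FDR 0.0108; 0.000699 with the block). It lost the call without both libraries of m2 (FDR 0.0641) or of m6 (FDR 0.0666). *Acer3*, an alkaline ceramidase outside the lysosome, fell by 0.32 log2 units (57.0 ± 3.47 against 71.5 ± 5.14 CPM, FDR 0.00633). *Asah2*, the neutral ceramidase, was higher in all 5 animals and was not called (16.9 ± 2.24 against 13.5 ± 1.63 CPM, log2 fold change 0.34, FDR 0.0554), and it rose with the block (FDR 0.0102). The ratio of *Asah1* to *Acer3* per length was 31.0 ± 2.85 in ARG1+ and 20.9 ± 1.90 in ARG1- cells, without overlap (exact permutation p = 0.00794, adjusted p = 0.0185). The groups of *Acer3* did not overlap, with ARG1+ lower, and those of *Asah1* did not, with ARG1+ higher. The ratio therefore had to separate, and its p adds nothing to the calls of these genes. *Asah1* made up 95.7% ± 0.23 of the ceramidase family's length-scaled counts in ARG1+ and 94.3% ± 0.50 in ARG1- cells.

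The groups of *Plpp3*, *Smpd1* and *Asah1* did not overlap, which is 3 of 10 members, with ARG1+ higher in each. Of all tested genes, 6.15% did not overlap with ARG1+ higher and 5.2% with ARG1+ lower.

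Among the kinases, *Cerk* rose, and *Sphk1* passed with the block but not without it. *Cerk*, at bases 86139128 to 86186141 of chromosome 15 (reverse strand), encodes ceramide kinase, the source of ceramide phosphate. Its CPM was 276, 264, 282, 222 and 255 in ARG1+ cells and 198, 205, 231, 158 and 193 in ARG1- cells. The groups overlapped because m235 was the lowest and m234 the highest animal in both, but the ARG1+ library was higher in every animal, by 0.29 to 0.49 log2 units. The log2 fold change was 0.40 ± 0.10 (SE, FDR 0.0184), and the FDR was 5.17e-05 with the block. Without both libraries of m2, m6 or m236 the FDR was 0.094, 0.0802 or 0.0716.

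*Sphk1*, at bases 116530925 to 116536675 of chromosome 11, encodes a kinase that makes sphingosine phosphate. It measured 28.9, 31.5, 27.2, 35.9 and 23.0 CPM in ARG1+ cells and 19.4, 22.8, 15.7, 27.8 and 20.6 CPM in ARG1- cells. The m235 animal was highest in both groups, so that the groups overlapped while each animal's own pair differed in the same direction, by 0.16 (m236) to 0.80 (m234) log2 units. The log2 fold change of 0.45 ± 0.15 (SE) was the next after that of *Plpp3*, with an FDR of 0.0621 without the block and 0.0015 with it. About 4.94% of its exon bases lie opposite a predicted antisense gene, Gm29292, and the sources used here do not say if reads were counted by strand.

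*Sphk2*, the other sphingosine kinase, was not called (52.4 ± 3.77 against 57.7 ± 4.15 CPM, FDR 0.184) and was lower with the block (FDR 0.0402). *Sphk1* contributed 37.3% ± 3.65 of the length-scaled kinase counts in ARG1+ and 28.2% ± 5.26 in ARG1- cells. The ratio of *Sphk1* to *Sphk2* was higher in the ARG1+ library of all 5 animals (0.599 ± 0.092 against 0.399 ± 0.10, exact permutation p = 0.0238, adjusted p = 0.0333). This adjusted p was 0.05 or above in 13 of the 15 repeats that left out a library or an animal, up to 0.12.

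*Sgpl1*, at bases 61098642 to 61147703 of chromosome 10 (reverse strand), encodes the lyase through which sphingosine phosphate leaves the pathway. It was the most abundant member by count, at 534, 525, 477, 480.0 and 554 CPM in ARG1+ and 456, 452, 432, 452 and 480.3 CPM in ARG1- cells. The m236 library was the highest in both groups, and the lowest ARG1+ values lay at the level of the highest ARG1- value. The difference was 0.09 to 0.23 log2 units within animals, and the fitted change of 0.18 ± 0.06 (SE) had an FDR of 0.0683 without and 0.00456 with the block. *Aldh3a2*, whose product oxidizes the aldehyde that the lyase releases, differed by 0.14 ± 0.04 (FDR 0.0508, 0.015 with the block).

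Of the members that build ceramide, none was called without the block. *Degs1*, at bases 182275772 to 182282804 of chromosome 1 (reverse strand), encodes the desaturase that turns dihydroceramide into ceramide. Its CPM was 141, 137, 118, 157 and 136 in ARG1+ and 109, 112, 84.4, 123 and 122 in ARG1- cells. In each group m234 was the lowest and m235 the highest animal. The log2 fold change was 0.32 ± 0.10 (SE), with an FDR of 0.0573 without the block and 0.000494 with it.

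*Cers2*, at bases 95314791 to 95323599 of chromosome 3, encodes the synthase of ceramides with very long acyl chains, which are abundant in myelin. It showed 168, 162, 163, 180.1 and 178 CPM in ARG1+ and 158, 164, 144, 168 and 179 CPM in ARG1- cells, and the groups overlapped over most of their range. The change was 0.06 ± 0.06 log2 units (SE), with a 95% confidence interval from -0.07 to 0.20, and it was called neither without the block (FDR 0.524) nor with it (FDR 0.213). About 4.92% of its exon bases lie opposite other annotated genes.

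*Cers6*, at bases 68861441 to 69114282 of chromosome 2, encodes a synthase that prefers shorter acyl chains. Its CPM was 267, 282, 261, 310.3 and 270.4 in ARG1+ and 283, 323, 264, 367 and 301 in ARG1- cells. It was the only member below its ARG1- partner in all 5 animals, although in m234 by just 0.02 log2 units. The change was -0.15 ± 0.09 (SE, 95% confidence interval -0.34 to 0.04), with an FDR of 0.281 without and 0.0225 with the block.

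The ratio of *Cers6* to *Cers2* per length was 0.499, 0.545, 0.50, 0.541 and 0.478 in ARG1+ cells and 0.56, 0.62, 0.575, 0.684 and 0.527 in ARG1- cells. It was lower in the ARG1+ library of every animal (exact permutation p = 0.0238, adjusted p = 0.0333), and the adjusted p was 0.05 or above in 14 of the 15 repeats without a library or an animal. *Cers2* held 58.2% ± 1.26 of the synthase family in ARG1+ and 55.2% ± 1.97 in ARG1- cells, *Cers6* 29.8% ± 1.24 and 32.7% ± 2.24, and *Cers5* 11.9% ± 1.09 and 12.1% ± 1.03. *Cers1*, *Cers3* and *Cers4* each stayed below the filter on low counts.

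*Sgms1*, at bases 32122727 to 32389714 of chromosome 19 (reverse strand), encodes the Golgi enzyme that makes sphingomyelin from ceramide. It measured 67.2, 64.7, 70.2, 80.1 and 78.3 CPM in ARG1+ and 57.7, 60.8, 53.0, 64.3 and 74.7 CPM in ARG1- cells. The groups overlapped through the ARG1- library of m236. The change was 0.21 ± 0.09 log2 units (SE), with an FDR of 0.144 without and 0.0107 with the block. Its share of the sphingomyelin synthase family was 36.6% ± 2.26 and 36.4% ± 2.56, and neither its ratio to *Sgms2* nor that to *Samd8* passed the test (exact permutation p = 0.468 and 0.357). The ratio to *Sgms2* was nevertheless higher in the ARG1+ library of all 5 animals, and permutation within animals gave an exact p of 0.0625, the smallest that 5 pairs allow. The groups' mean log2 ratios differed by 0.10 for *Sgms2* and by -0.10 for *Samd8*.

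**Figure D2:**
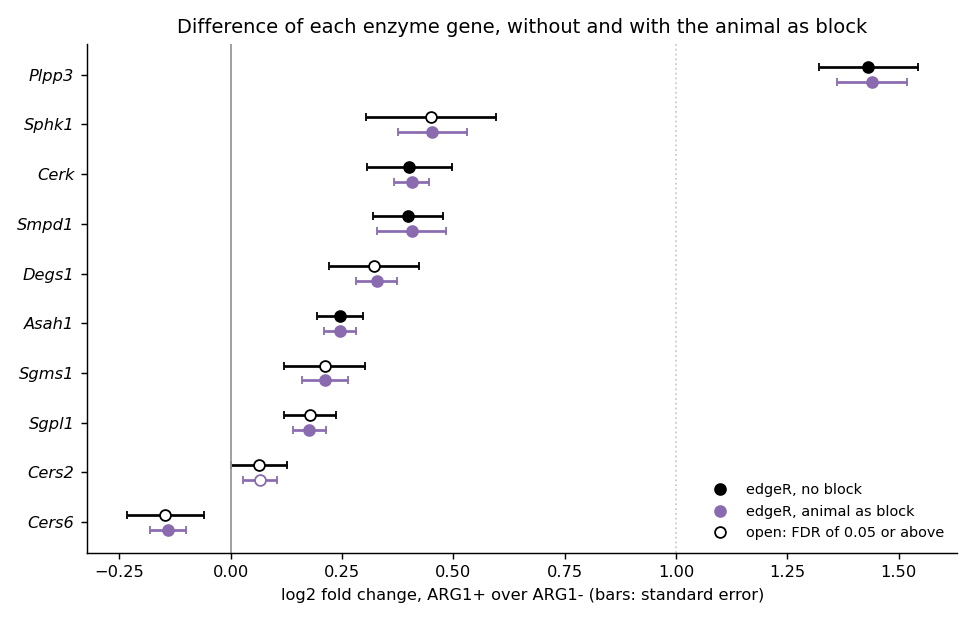
Log2 fold change of each enzyme gene, ARG1+ over ARG1- (x axis; bars are standard errors), from edgeR without a block (black) and with the animal as block (purple), filled where the FDR was below 0.05. The estimates of the 2 fits differ by at most 0.01 log2 units, and filled points go from 4 to 9 with the block; the dotted line marks 1 log2 unit, which *Plpp3* alone exceeds.

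The block left the estimates nearly as they were and narrowed most of the errors. The spread between animals was large beside the differences for *Cerk*, *Sphk1*, *Degs1* and *Cers6*, whose SE fell from 0.10, 0.15, 0.10 and 0.09 to 0.04, 0.08, 0.05 and 0.04. That of *Smpd1* stayed at 0.08. In all, the ARG1+ library was higher in all 5 animals for 8 of the 10 members, where 20% of all tested genes had this pattern.

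By level per exon length (CPM per kb of the union of exons), *Asah1* ranked first in both groups, at 154 ± 7.84 in ARG1+ and 129.9 ± 3.37 in ARG1- cells, and *Sgpl1* was next at 124 ± 8.24 and 110.0 ± 4.17. *Cers2* (76.8 ± 3.67 and 73.4 ± 5.90) and *Degs1* (67.3 ± 6.86 and 53.7 ± 7.65) followed. *Cerk* stood at 57.0 ± 5.16 and 43.2 ± 5.70, and *Cers6* at 39.4 ± 2.78 and 43.6 ± 5.64 (SD, n = 5 each). In ARG1- cells the ranges of *Cerk* and *Cers6* overlapped, and in ARG1+ cells those of *Cerk* lay above those of *Cers6*. *Sgms1* was at 15.7 ± 1.47 and 13.5 ± 1.78. *Plpp3* was last in ARG1- cells (5.29 ± 0.86), where its range overlapped with that of *Sphk1* (5.47 ± 1.16). In ARG1+ cells it was at 14.3 ± 1.42, above *Smpd1* (8.32 ± 0.66) and *Sphk1* (7.54 ± 1.24) and overlapping with *Sgms1*.

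**Figure D3:**
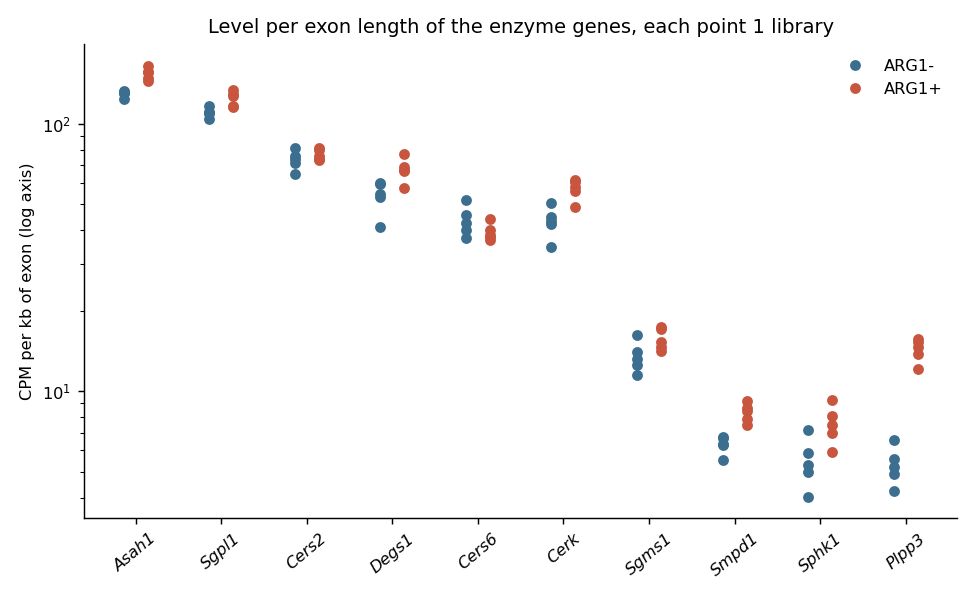
Level of each enzyme gene per kb of exon (CPM per kb, logarithmic y axis), with each point 1 of the 5 ARG1- (blue) or 5 ARG1+ (red) libraries and genes ordered by their mean in ARG1- cells. The lowest library of *Asah1* is at 124 and that of *Sgpl1* at 105, the highest value among *Sgms1*, *Smpd1*, *Sphk1* and *Plpp3* is 17.4, and *Plpp3* moves from the lowest place to between *Sgms1* and *Smpd1*.

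The rest of the pathway was described from a list of 46 other sphingolipid genes, 30 of which passed the filter. Of these 30, 6 were higher, 3 were lower and 21 were not called (median log2 fold change 0.04), and with the block 11 were higher and 5 lower. At the entry of the pathway, *Sptssa*, a small subunit of serine palmitoyltransferase, rose by 0.39 ± 0.08 log2 units (40.8 ± 4.37 against 31.0 ± 2.65 CPM, FDR 0.0105). The other 6 tested genes of that group were not called without the block, and of these *Kdsr* was higher with it (FDR 0.0351). *Sptssa* was also the most abundant of the group per length in ARG1+ cells (30.3 CPM per kb), and *Sptlc2*, a catalytic subunit, in ARG1- cells (25.7 CPM per kb). *Cers5* was the only other ceramide synthase or desaturase tested (FDR 0.711).

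Of the genes that move ceramide on to other lipids, *Ugcg* fell where *Cerk* rose. *Ugcg* encodes the synthase of glucosylceramide and went from 149.5 ± 15.7 to 111 ± 12.8 CPM (log2 fold change -0.43 ± 0.09 SE, FDR 0.0104), with no overlap between the groups. *Col4a3bp*, the ceramide transfer protein CERT, was not called (FDR 0.644). *Cptp*, of the same group, was higher in all 5 animals, with no overlap (8.38 ± 0.31 against 6.90 ± 0.62 CPM). Its FDR was 0.0563 without the block and 0.0281 with it. *Samd8*, an enzyme of the endoplasmic reticulum that is related to the sphingomyelin synthases and makes ceramide phosphoethanolamine, rose by 0.32 ± 0.06 (FDR 0.00856), and *Sgms2* was not called (FDR 0.639).

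Beside *Smpd1*, 2 of the other 5 tested genes of the sphingomyelinase group were higher. *Smpdl3a*, a relative of acid sphingomyelinase that is known to act on nucleotides and not mainly on sphingomyelin, rose by 0.59 ± 0.10 (259 ± 30.0 against 171 ± 22.4 CPM, FDR 0.00351) and was the most abundant of the group per length. *Smpd5* rose by 0.67 ± 0.19 at a low level (6.54 ± 1.56 against 4.16 ± 0.82 CPM, FDR 0.0359). *Smpd2* and *Smpd4* were not called without the block, and *Smpd4* was higher with it (FDR 0.0416).

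The largest differences outside the members were at the receptor and export steps of sphingosine phosphate. The product of *Sphk1* makes this lipid, and those of *Plpp3* and *Sgpl1* act on it. *S1pr1*, the receptor that guides lymphocyte egress, rose by 1.07 ± 0.13 log2 units (16.2 ± 2.83 against 7.80 ± 1.17 CPM, FDR 0.000687), and *S1pr2* rose by 0.35 ± 0.09 (34.0 ± 3.64 against 26.6 ± 2.84 CPM, FDR 0.0259). The receptors *S1pr3* and *S1pr4* were not called (log2 fold change -0.24 and -0.55, FDR 0.587 and 0.48), and *S1pr5* was below the filter. *Spns2*, which exports sphingosine phosphate, fell by 1.33 ± 0.33 (3.82 ± 1.10 against 9.87 ± 4.82 CPM, FDR 0.0214), with groups that overlapped. Per length, *S1pr1* and *S1pr2* were level in ARG1+ cells at 5.32 CPM per kb each, where ARG1- cells had 2.56 and 4.15. For lysophosphatidic acid, the other substrate of *Plpp3*, 5 of 7 list genes were tested and the receptors *Lpar6* (log2 fold change -0.68, FDR 0.00327) and *Lpar2* (-0.46, FDR 0.043) were lower. *Lpar5* was higher in all 5 animals but was not called (0.48, FDR 0.402), and neither was *Lpar1* (-0.03, FDR 0.963). *Enpp2*, which encodes autotaxin, the enzyme that makes this lipid, was near the filter at 1.10 ± 0.56 and 1.23 ± 0.57 CPM.

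**Figure D4:**
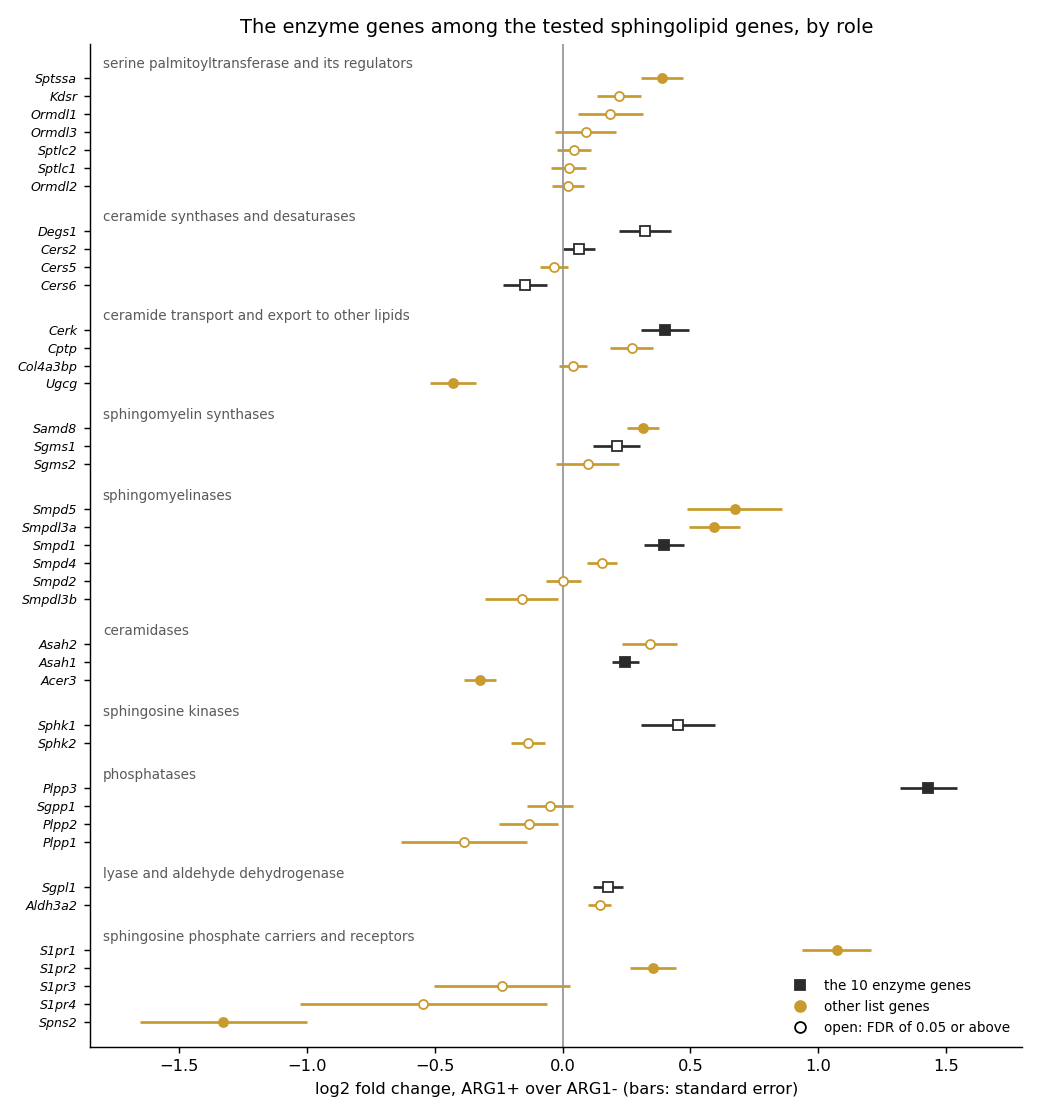
Log2 fold change, ARG1+ over ARG1- (x axis; bars are standard errors), of the 10 enzyme genes (black squares) and the 30 other tested sphingolipid genes (ochre circles) grouped by role, filled where the FDR was below 0.05 without a block. *Plpp3* at 1.43 and *S1pr1* at 1.07 are the points furthest to the right and *Spns2* at -1.33 is furthest to the left.

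**Figure D5:**
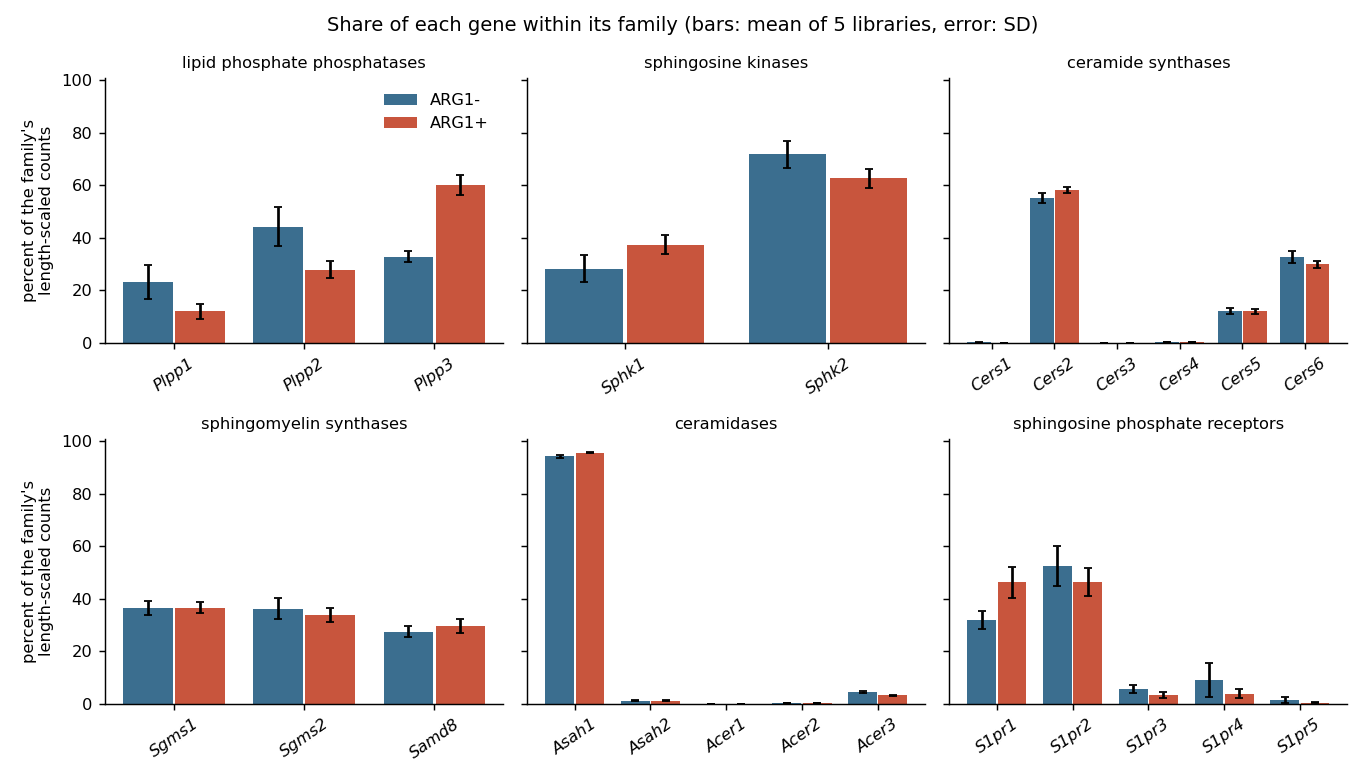
Share of each gene in the length-scaled counts of its family (y axis, percent; bars are the mean and error bars the SD of 5 libraries) in ARG1- (blue) and ARG1+ (red) cells. *Plpp3* goes from 32.6% to 60.2% of the lipid phosphate phosphatases and *Sphk1* from 28.2% to 37.3% of the sphingosine kinases, while *Sgms1* is at 36.4% and 36.6% and *Asah1* makes up 93.5% to 95.9% of the ceramidases.

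The sort and the libraries were checked as follows. *Arg1* had 588–1049 CPM in ARG1+ libraries and 14.3–27.0 CPM in the ARG1- libraries (log2 fold change 5.45 ± 0.21, FDR 1.07e-07). Total counts were 28870482–33826355 in ARG1+ and 8396863–35455643 in ARG1- libraries, the lowest in m234, and each member had between 131 and 16969 counts per library. *Cd3e*, *Cd3d*, *Cd3g*, *Ly6g* and the B cell genes *Ms4a1* and *Pax5* were below 1 CPM in all libraries, and the T cell markers summed to at most 2.68 CPM. All 6 markers of the gate and of macrophages were expressed, and *Itgam* and *Lyz2* were higher in ARG1+ cells. *Cx3cr1*, at 43.9–233 against 102–565 CPM, was not called without the block (FDR 0.153) but was lower in all 5 animals and called lower with it (log2 fold change -0.97, FDR 9.24e-05). *Ptprc*, *Csf1r* and *Adgre1* were also called only with the block. *Ptprc* and *Csf1r* were lower (log2 fold change -0.22 and -0.19, FDR 0.00192 and 0.0153) and *Adgre1* was higher (0.32, FDR 0.000935). The 6 microglia markers summed to 128–261 CPM in ARG1+ and 161–759 CPM in ARG1- libraries. The highest sum was that of the ARG1- library of m234, with the next at 387 CPM, and none of the 6 was called without the block, while 5 were lower with it. Without that library, 4 members were still called higher, with FDRs from 0.00014 (*Plpp3*) to 0.0172 (*Asah1*), and none lower. The microglia sum was lower in the ARG1+ library of all 5 animals, so leaving out 1 library does not remove the difference. Of the monocyte markers, *Ccr2*, *Plac8* and *Vcan* were lower in ARG1+ cells, and *Ly6c2* and *Fn1* were not called without the block. With it, *Ly6c2* was lower (log2 fold change -0.45, FDR 0.000262) and *Fn1* was higher (0.46, FDR 0.000793). The 5 markers summed to 8117–12692 and 7141–10250 CPM. Most of this sum was *Fn1*, which also other macrophages express, and without it the other 4 summed to 672–1010 CPM in ARG1+ and 1413–1894 CPM in ARG1- libraries. Of the 5 tested dendritic cell markers, *Flt3*, *Zbtb46*, *Ccr7* and *Dpp4* were lower. The other, *Clec9a*, was the most abundant of the list in both groups and was higher in 4 of 5 animals. It was not called (13.9 ± 5.68 against 11.8 ± 3.66 CPM, log2 fold change 0.28, FDR 0.547). The 7 of the list summed to 9.05–23.8 and 20.1–38.5 CPM, with *Xcr1* and *Cd209a* below 1 CPM in all libraries. The border-associated macrophage markers *Cd163*, *Lyve1* and *Folr2* were below 1 CPM in all libraries, while *Mrc1* was higher (log2 fold change 1.16, FDR 0.032). *F13a1* was not called without the block (FDR 0.0511) but was higher in all 5 animals and called higher with it (log2 fold change 0.82, FDR 1.62e-05). Neutrophil markers summed to 18.1–30.3 and 12.1–31.6 CPM (1 of 2 tested lower), oligodendrocyte markers to 118–154 and 105–157 CPM (none of 5 called), endothelial markers to 71.2–130.2 and 115–154 CPM (2 of 4 lower) and astrocyte markers to 48.0–81.3 and 42.1–58.0 CPM (*Gja1* and *Aldoc* of 5 higher, *Aqp4* below 1 CPM in all). Those calls are without the block. With it, *S100a8* and *Mbp* were also called higher (FDR 0.0154 and 0.00306), and *Cldn11* and *Slc1a3* lower (FDR 0.0204 and 0.00419). The part of these cell types in the differences of the members was not tested.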

How the data were processed

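RNA from the sorted cells was made into directional libraries and read for 50 bases from 1 end. The deposited values are raw read counts per gene: the authors aligned reads to GRCm38 with STAR (2.7.10b in the submitters' processing notes), counted them with summarizeOverlaps on the basic annotation of Ensembl release 100 and summed transcripts to genes, without normalization.

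The filter kept genes above 1 CPM in 3 or more libraries, and these were tested with edgeR's quasi-likelihood test (edgeR 4.0.16, R 4.3.3) on all 10 libraries with TMM factors and no block. A call is an FDR below 0.05. Alternatives were DESeq2 1.42.0, limma-trend (limma 3.58.1, prior counts 2 and 0.5; limma-trend is the authors' test), other library scalings and filters, a limit of 1 log2 unit, the animal as block, and fits without 1 library or without both libraries of 1 animal. Exon lengths came from a GENCODE annotation of the same build, which gave one for all 63 list genes, and the table's coordinates are used for genes. Ratios were compared by 2-sided exact permutation of the 10 libraries and, added after seeing the data, within animals.

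The genes named are the members, *Arg1*, every list gene with an FDR below 0.05, the most abundant of each role, and family partners. The members and the lists were chosen with earlier results of these data known. Labels give 1 animal number to both libraries of a mouse. Residuals from group means had correlations across genes of 0.415 to 0.706 within animals and at most 0.0837 between them (genes are not independent replicates), so the libraries are paired. Libraries of a group differed from each other beyond counting error (chi-square of 15.6 to 62.9 per degree of freedom). In the smallest library 1 CPM is about 8.40 counts, and there the counting error of *Smpd1* (137 counts) was 8.54%, above the spread of 7.64% between ARG1- libraries, while that of each other member was below its spread. The sum of the B cell marker list is not reported here.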

Additional observations from a re-analysis of the deposited data

Results flagged for a closer look

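Of the 44 groups of 5 libraries that were checked for a value far from the others (each of 22 genes in ARG1+ and in ARG1- cells, on the log2 scale), 2 had one by Dixon's criterion of 0.71, and about 1 in 20 is flagged by chance. *Asah1* was at 344 CPM in the ARG1- library of m234, below the other ARG1- libraries at 362–368 CPM (Dixon ratio 0.748), and that library also has the lowest total count. *Acer3* was at 63.1 CPM in the ARG1+ library of m235, above the other ARG1+ libraries (Dixon ratio 0.762). Without the ARG1- library of m234, *Asah1* had a log2 fold change of 0.23 and an FDR of 0.0172.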

How the results depend on the processing

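All 10 members kept their direction in the 24 other fits. The count of 4 members called higher and 0 lower held with other scalings, other filters and limma-trend, and became 7 and 0 with DESeq2 (*Sphk1*, *Degs1* and *Sgpl1* added), 8 and 1 with the replicate block, and 1 and 0 with the limit of 1 log2 unit. Leaving out a library or an animal gave 2 to 6 members higher, with 2 without both libraries of m2 or of m6, where *Cerk* and *Asah1* lost their calls. For the other sphingolipid genes, 6 higher and 3 lower became 11 and 5 with the replicate block and 1 and 1 with the limit of 1 log2 unit; leaving out a library or animal gave 2 to 7 higher, with 3 without m2 and 2 without m6, and 2 to 3 lower. Members whose groups do not overlap numbered 3, and 3 to 5 in the fits that omit a library or an animal. The cause of these shifts was not tested. The ratios of *Plpp3* to *Plpp1* and *Plpp2* and of *Asah1* to *Acer3* had an adjusted p of 0.0667 without m2, m6 or m234 and of 0.05 without m235 or m236, so none was below 0.05 without an animal, where 4 against 4 libraries remain. Permuted within animals (the replicate block for ratios), each of the 5 ratios called had an adjusted p of 0.0729, which 5 pairs cannot bring below 0.0625. With the longest transcript in place of the exon union, the share of *Sphk1* in ARG1+ cells was 42.6%, those of *Sgms1* were 39.3% and 39.1%, and that of *Asah1* in ARG1+ cells was 95.3%; the other shares of members moved by less than 1 SD. At 131 counts or more per library, depth limits *Plpp3*, *Smpd1* and *Sphk1* in the ARG1- library of m234 most.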
